A study of Mus musculus with 2 samples.

Results

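The BCL2 family, the caspases and the factors around them decide whether a cell lives or dies by apoptosis. They were described here through 34 genes, chosen by symbol, among the 55536 GENCODE genes in poly(A)+ RNA sequencing of inflammation-experienced regulatory T cells. The cells were primary cells from male mice, 7 weeks old, with activated regulatory T cells as their stated origin. The labels name no genotype, agent or second condition, nor the kind of inflammation, the tissue or the number of animals. By the labels there was 1 biological replicate with 2 technical replicates (library 1 and library 2). No comparison of conditions was therefore possible. Whether the libraries share an RNA preparation is not stated. Each SD (n = 2 technical libraries) measures the gap between libraries, of whatever source, not spread between animals.

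In the intrinsic pathway, BH3-only proteins are switched on by stress or by loss of survival signals and either neutralise the pro-survival BCL2 proteins or activate BAX and BAK directly. BAX and BAK then open the outer mitochondrial membrane, and released cytochrome c drives the assembly of an apoptosome of APAF1 and caspase-9, whereas death receptors engage caspase-8 through FADD. In regulatory T cells of mice, survival is known to depend on MCL1 and to be limited by the BH3-only protein BIM, and interleukin 2 is a known survival signal for these cells.

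The 2 libraries held 26593267 and 22036331 expected counts over GENCODE genes. The T cell markers Cd3d, Cd3e, Cd3g, Cd4 and Lck were all detected, with a summed TPM (a transcript abundance scaled by length and to a common total per library) of 4581 in library 1 and 4555 in library 2. The regulatory T cell markers Foxp3, Il2ra, Ctla4, Ikzf2 and Tnfrsf18 were also all detected, at a sum of 784.3 and 759.2 TPM. Of these 5, 3 were called higher in library 1, among them Ctla4 (1.3-fold) and Ikzf2 (1.22-fold), and 1 higher in library 2. Of the T cell markers, 1 was called higher in each library. The libraries stood further apart in several markers of other cells. All 6 erythroid markers were called higher in library 1, where they summed to 8494 TPM against 94.67 TPM in library 2. All 6 markers of dividing cells were also called higher in library 1, at 58.1 TPM against 12.86 TPM in library 2. All 7 macrophage markers were called higher in library 2, with a sum of 9.45 TPM in library 1 and 68.49 TPM in library 2, and C1qc was at 0 in library 1. The B cell markers summed to 601.7 and 548.1 TPM, of which Ighm gave 447.22 and 436.4 TPM. Of these 6, 5 were called higher in library 1, by 1.05-fold (Ighm) to 1.53-fold (Cd79b). Neutrophil and monocyte markers summed to 73.15 and 116.4 TPM, of which Ly6c2 gave 46.35 and 111.74 TPM. Of the 5 tested, 3 were called higher in library 1, among them Lyz2 at 23.78 and 3.72 TPM, and 2 higher in library 2, with S100a8 at 0 in both libraries and S100a9 at 0 in library 2. The NK cell markers summed to 6.23 and 8.26 TPM with Ncr1 at 0 in library 1. The part of these cells in the results on apoptosis genes was not tested. In such bulk RNA, fewer cells of a type and less RNA per cell cannot be told apart.

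Of the 34 genes, 29 (85.3%) were detected, which here means that TPM reached 1 in both, compared with 49.1% of the 22028 protein-coding genes. The 5 others were Bmf, Bok, Bak1, Bcl2l2 and Hrk, each of which reached that level in 1 library or in neither. Mean levels spanned Mcl1, at 394 TPM, to genes under 1 TPM, and the median over all 34 was 26.4 TPM. Among detected genes, the median of the 29 was 34.9 TPM, beside 29.9 TPM for all detected protein-coding genes.

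**Figure D1:**
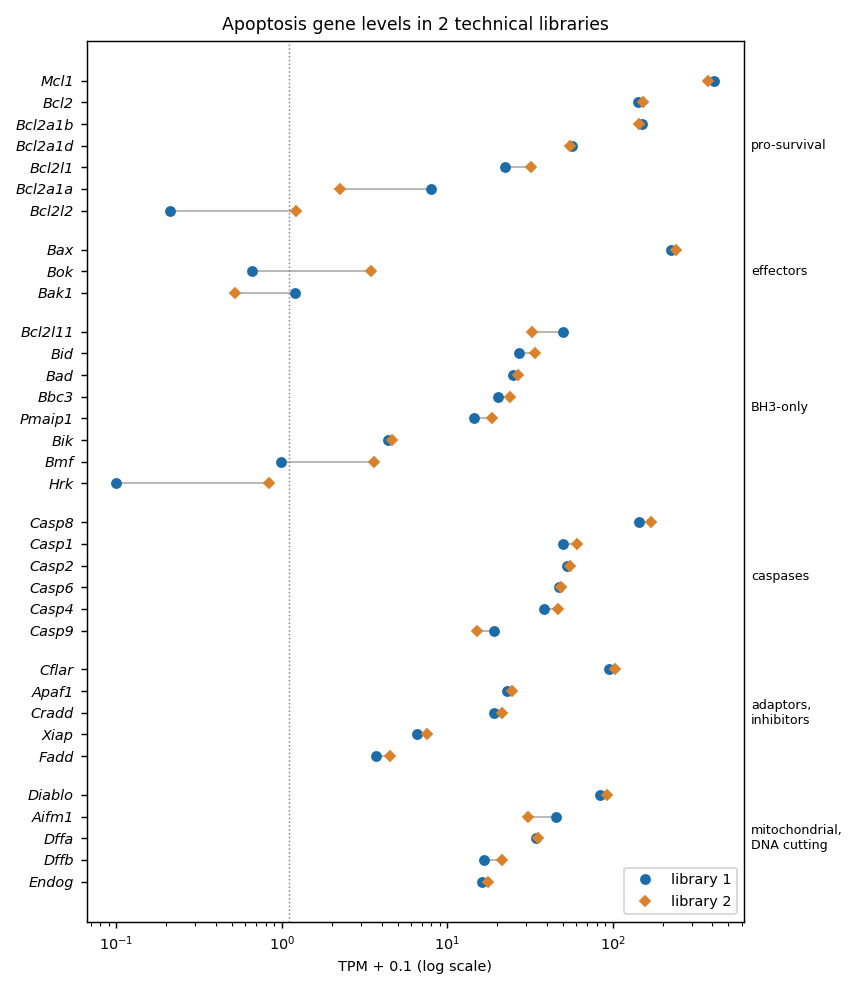
TPM + 0.1 (log axis) of each gene in library 1 (circles) and library 2 (diamonds), grouped by role and sorted by mean within a role, with a dotted line at the level that counts as detected. Mcl1 lies farthest right, at 410.83 TPM in library 1 and 377.07 TPM in library 2. Each of the 5 genes not detected has at least 1 point left of the line and a wide gap between libraries.

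Pro-survival genes had the highest summed TPM of the 6 roles, led by 1 gene. Mcl1 (chr3:95658788-95663176, mm10, plus strand), a short-lived protein that sequesters BIM and BAK, had 410.83 TPM in library 1 and 377.07 TPM in library 2. Its mean of 394 ± 23.9 TPM exceeded that of 97.5% of detected genes. Mcl1 alone made up 51.9% and 49.3% of the summed TPM of the 7 pro-survival genes.

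Bcl2 (chr1:106538178-106714274, minus strand), the founding member of the family, had 142.59 and 152.42 TPM (147.5 ± 6.95). The level of Mcl1 was thus 2.88 times that of Bcl2 in library 1 and 2.47 times in library 2. Bcl2l1, which encodes BCL-XL, had 22.24 and 32.05 TPM (27.1 ± 6.94), and Bcl2 exceeded it 6.41 and 4.76 times. Bcl2l2, which encodes BCL-W, was close to the floor with 0.11 and 1.11 TPM, or 5 and 52 counts. The order Mcl1, Bcl2, Bcl2l1, Bcl2l2 was the same in both libraries, and no value of 1 of these genes reached into the range of the next.

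The A1 gene, Bcl2a1, is present in the mouse as several copies on chromosome 9. The 3 described here are near-identical and lie within chr9:88723285-89207827. Bcl2a1c, at chr9:114330135-114330578, had 1.9 and 1.76 TPM and is not among them. A1 is a pro-survival protein induced by NF-kB and antigen receptor signals in lymphocytes. The first 150 coding bases of the 3 copies among the genes described here are shown because they hold 7 of the 12 positions, in capitals, at which the 519 coding bases differ. Bcl2a1b lies at chr9:89199360-89199509 (plus strand), Bcl2a1d at chr9:88731570-88731719 (minus strand) and Bcl2a1a at chr9:88957051-88957200 (plus strand), all in mm10.
Bcl2a1b: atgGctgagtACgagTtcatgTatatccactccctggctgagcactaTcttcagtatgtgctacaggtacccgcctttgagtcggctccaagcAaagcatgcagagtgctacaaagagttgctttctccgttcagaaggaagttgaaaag
Bcl2a1d: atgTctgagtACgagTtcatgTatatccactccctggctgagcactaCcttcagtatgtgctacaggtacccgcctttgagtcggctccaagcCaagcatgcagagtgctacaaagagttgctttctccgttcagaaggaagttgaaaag
Bcl2a1a: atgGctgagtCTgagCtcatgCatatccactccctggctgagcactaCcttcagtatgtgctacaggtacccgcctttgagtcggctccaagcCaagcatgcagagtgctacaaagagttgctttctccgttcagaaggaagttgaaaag

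Bcl2a1b and Bcl2a1d were 98.8% identical over the coding sequence, Bcl2a1b and Bcl2a1a 97.9%, and Bcl2a1d and Bcl2a1a 98.7%. The longest stretch shared by all 3 was 217 bases, so the assignment of reads to a copy rests on few positions and the level of each copy is uncertain. Bcl2a1b had 150.28 and 144.5 TPM (147 ± 4.09), Bcl2a1d 56.93 and 54.94 TPM (55.9 ± 1.41), and Bcl2a1a 7.86 and 2.13 TPM. The order of the copies was the same in both libraries. Bcl2a1b took 68.8% of the counts of the copies in library 1 and 70.5% in library 2, Bcl2a1d took 27.6% and 28.4%, and Bcl2a1a took 3.61% and 1.04%. The deposited posterior counts, which carry the uncertainty of sharing reads, were 1906.76 ± 45.70 and 1497.49 ± 42.54 for Bcl2a1b, and 102.36 ± 15.73 and 24.17 ± 7.62 for Bcl2a1a (± posterior SD). Summed over these 3 copies, A1 had 215.1 and 201.6 TPM, a level between those of Mcl1 and Bcl2.

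The regions around the annotated starts of Bcl2a1b and Bcl2a1a were also nearly the same. The estimated level of Bcl2a1b was 19.1 and 67.8 times that of Bcl2a1a, which had only 22.21 counts in library 2. A link between these sequences and the levels was not tested. Over the 256 bases that both RefSeq promoter windows cover (GRCm38.p6, plus strand, chr9:89199023-89199278 for Bcl2a1b and chr9:88956714-88956969 for Bcl2a1a), 2 positions differed, shown in capitals.
Bcl2a1b promoter: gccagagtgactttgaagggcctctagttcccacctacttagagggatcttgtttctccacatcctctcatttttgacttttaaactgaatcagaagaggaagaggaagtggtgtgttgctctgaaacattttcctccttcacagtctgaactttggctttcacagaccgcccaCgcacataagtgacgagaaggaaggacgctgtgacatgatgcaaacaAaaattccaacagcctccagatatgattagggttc
Bcl2a1a promoter: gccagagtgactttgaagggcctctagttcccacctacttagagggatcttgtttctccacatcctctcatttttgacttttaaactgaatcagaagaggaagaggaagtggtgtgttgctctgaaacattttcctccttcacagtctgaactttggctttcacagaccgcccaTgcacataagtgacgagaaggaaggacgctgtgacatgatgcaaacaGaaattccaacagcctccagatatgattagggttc

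Annotated transcripts divided the 2 leading single-copy survival genes. Mcl1-201 took 75.74% of the Mcl1 TPM in library 1 and 77.71% in library 2, and 92.86% and 93.56% of its counts. The remainder went to Mcl1-202, which is 858 bases long against 3418 bases for Mcl1-201. Its 24.26% and 22.29% of the TPM are estimates that rest on 7.14% and 6.44% of the counts. Mcl1-202 lacks 138 bases of the coding sequence. They are shown in capitals with 12 bases on either side (chr3:95658897-95659058, mm10, plus strand).
Mcl1-201: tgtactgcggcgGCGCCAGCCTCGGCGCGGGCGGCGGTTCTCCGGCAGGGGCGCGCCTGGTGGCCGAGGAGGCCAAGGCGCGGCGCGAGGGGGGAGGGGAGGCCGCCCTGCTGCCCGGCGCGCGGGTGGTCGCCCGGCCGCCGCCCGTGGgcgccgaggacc

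Bcl2 was split nearly evenly by TPM. The 2-exon transcript Bcl2-201 took 49.75% and 47.98% of the TPM, and the 1-exon transcript Bcl2-202, which reads 1966 bases past the end of the first exon, took 50.25% and 52.02%. By counts, the longer Bcl2-201 held 71.69% and 70.23%. These shares are estimates from short fragments, and reads of unspliced RNA in that stretch cannot be told apart from Bcl2-202. The coding sequences share 576 bases and then end differently, as shown with the last 30 shared bases (chr1:106712305-106712334, mm10, minus strand) in lower case and each transcript's own end in capitals (chr1:106543264-106543398 for Bcl2-201 and chr1:106712281-106712304 for Bcl2-202).
Bcl2-201: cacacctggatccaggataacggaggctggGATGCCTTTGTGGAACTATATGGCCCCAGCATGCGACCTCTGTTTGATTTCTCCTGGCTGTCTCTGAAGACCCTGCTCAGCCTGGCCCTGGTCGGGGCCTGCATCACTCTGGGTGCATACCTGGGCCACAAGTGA
Bcl2-202: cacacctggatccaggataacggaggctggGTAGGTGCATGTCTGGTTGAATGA

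Among the effectors, nearly all of the signal was Bax (chr7:45461697-45466898, minus strand), with 224.98 and 240.74 TPM (233 ± 11.1). Bax took 99.3% of the summed effector TPM in library 1 and 98.5% in library 2. Bak1, which encodes the other main pore-forming protein, had 1.1 and 0.42 TPM from 38.78 and 11 counts. Its level was thus 205 and 573 times lower than that of Bax. In the transcript table, 51.39% of the Bak1 TPM in library 1 was assigned to the coding transcript Bak1-202, and all of it in library 2 to Bak1-204, annotated as a target of nonsense-mediated decay. Bok, which encodes a relative of both, had 0.56 and 3.37 TPM from 5 and 45 counts. The ratio of Bcl2 to Bax was 0.634 in library 1 and 0.633 in library 2.

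The 8 BH3-only genes summed to 141.5 and 143.9 TPM, against 790.8 and 764.2 TPM for the 7 pro-survival genes. The pro-survival sum was therefore 5.59 times the BH3-only sum in library 1 and 5.31 times in library 2 (5.45 ± 0.196). The gene with the highest BH3-only mean was Bcl2l11 (chr2:128126038-128162547, plus strand), which encodes BIM and had 50.2 and 32.46 TPM (41.3 ± 12.5). Mcl1 exceeded it 8.18 times in library 1 and 11.6 times in library 2. Bcl2l11-205, with a coding length of 588 bases, took 62.65% and 63.47% of the Bcl2l11 TPM, and the shorter Bcl2l11-202 took 11.85% and 6.08%.

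Bid, which is cleaved by caspase-8 and links the death receptor route to mitochondria, had 26.94 and 33.89 TPM. Bad, which is held inactive by phosphorylation, had 24.77 and 26.44 TPM. The p53 targets Bbc3 and Pmaip1, which encode PUMA and NOXA, had 20.06 and 23.75 TPM and 14.37 and 18.59 TPM. NOXA binds MCL1 above all. Bik had 4.27 and 4.5 TPM, Bmf 0.89 and 3.5 TPM, and Hrk was at 0 counts in library 1 and 38 counts in library 2. By counts, Bcl2l11 was called higher in library 1, Bid, Bbc3, Pmaip1, Bmf and Hrk were called higher in library 2, and Bad (log2 ratio 0.10) and Bik (-0.18) were not called by the test described below, although Bad was called higher in library 1 with DESeq2 factors (0.24).

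**Figure D2:**
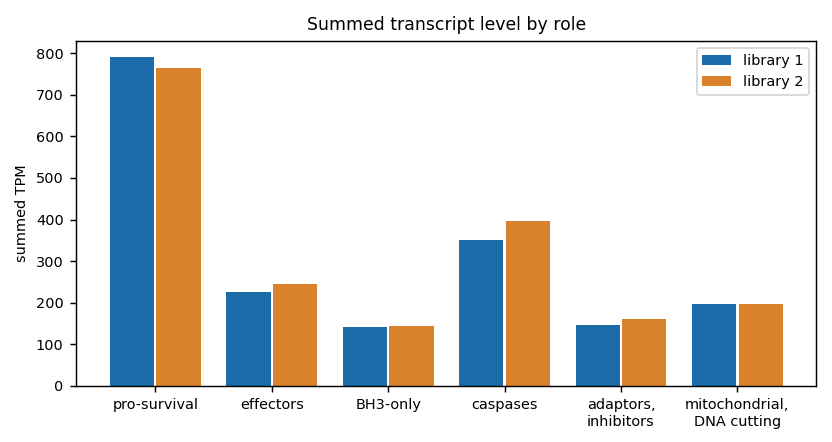
Summed TPM of the genes of each of the 6 roles, as bars for library 1 (left) and library 2 (right). The pro-survival bars stand at 790.8 and 764.2 TPM and the BH3-only bars at 141.5 and 143.9 TPM.

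All 6 caspase genes among the 34 were detected. Casp8 (chr1:58795374-58847503, plus strand), the initiator of the death receptor route, had 144.08 and 169.35 TPM (157 ± 17.9) and took 41.1% and 42.8% of the caspase sum. Casp9, the initiator of the mitochondrial route, had 18.93 and 14.94 TPM (16.9 ± 2.82), and Casp8 exceeded it 7.61 and 11.3 times. Casp2, an initiator activated through the adaptor RAIDD, had 53.02 and 55.35 TPM. The executioner Casp6 had 46.87 and 48.29 TPM. The inflammatory caspases Casp1, which processes interleukin 1, and Casp4, the mouse gene long called Casp11 and a sensor of lipopolysaccharide, had 49.94 and 60.73 TPM and 38.1 and 46.59 TPM. They are neighbours on chromosome 9, 1562 bases apart on the same strand, and whether the counting used strand is not stated.

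Cflar (chr1:58711508-58758884, plus strand) encodes FLIP, the catalytically inactive relative of caspase-8 that holds it in check, and lies 36489 bases from Casp8 on the same strand. It had 94.19 and 102.84 TPM (98.5 ± 6.12), so that Casp8 exceeded it 1.53 and 1.65 times. Its transcripts were the most divided by measure. Cflar-205, with a coding length of 1443 bases, took 63.09% and 57.33% of the Cflar counts but 26.67% and 20.70% of its TPM. The noncoding Cflar-208, of 378 bases, took 3.48% and 4.98% of the counts but 29.16% and 35.65% of the TPM. The TPM of Cflar is therefore carried in part by a short transcript with few counts.

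The adaptors were lower. Apaf1, the scaffold of the apoptosome, had 22.83 and 24.37 TPM (23.6 ± 1.09), Cradd, which encodes RAIDD, had 19.09 and 21.17 TPM, and Fadd had 3.6 and 4.37 TPM (3.99 ± 0.544). Xiap, which inhibits caspases directly, had 6.41 and 7.46 TPM. Its antagonist Diablo, known as SMAC, had 84.02 and 91.92 TPM (88.0 ± 5.59) and led the mitochondrial and DNA fragmentation factors. Aifm1, a mitochondrial flavoprotein, had 45.19 and 30.55 TPM (37.9 ± 10.4), and the mitochondrial nuclease gene Endog had 16.15 and 17.44 TPM. The nuclease that cuts DNA between nucleosomes is encoded by Dffb, at 16.62 and 21.16 TPM, and its inhibitor and chaperone by Dffa, at 34.34 and 35.41 TPM.

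**Figure D3:**
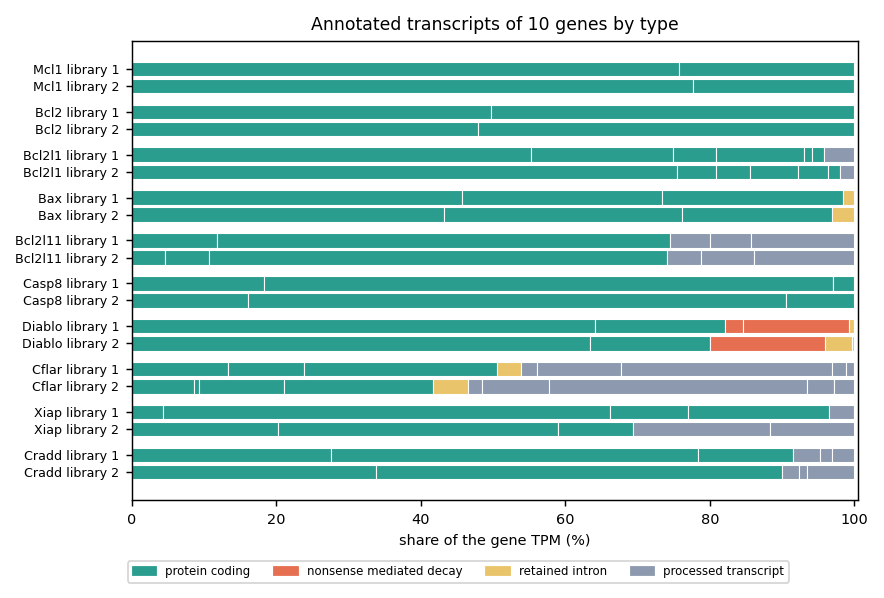
Share of the TPM of 10 genes (%) taken by each annotated transcript in library 1 (upper bar of each pair) and library 2 (lower bar), coloured by annotated type, with white lines between transcripts. Bcl2 is divided near the middle in both libraries, at 49.75% and 47.98%, and Cflar carries the noncoding transcript of 29.16% and 35.65%.

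Over the 23 detected genes with more than 1 transcript in the annotation, the same transcript led in both libraries for 22 (95.7%), compared with 81.3% of 9954 detected protein-coding genes. The exception was Cradd, where Cradd-202 took 50.72% and 33.8% of the TPM and Cradd-205 took 13.25% and 56.19%. Both carry a coding length of 597 bases. The leading transcript was protein-coding for 22 of the 23, with Cflar the exception by TPM, compared with 84.6% of the same background. For Bcl2l1, Bcl2l1-201 led with 55.21% and 75.41%, and Bcl2l1-202, with the same coding length of 699 bases, took 19.75% and 5.45%. Among its transcripts with a shorter coding length, Bcl2l1-205 (627 bases) took 12.24% and 6.70%, and Bcl2l1-203 (564 bases) took 5.90% and 4.67%.

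Sorted by mean TPM, the 34 genes formed 33 neighbouring pairs, and the ranges between libraries overlapped in 22 of them. The pairs that stood apart were Mcl1 over Bax, Bax over Casp8, Bcl2a1b over Cflar, Cflar over Diablo, Diablo over Bcl2a1d, Casp2 over Casp6, Casp6 over Casp4, Dffa over Bid, Bad over Apaf1, Pmaip1 over Xiap and Fadd over Bmf. These ranges use the point values only. The deposited TPM intervals in library 2 overlapped for some of these pairs. Examples were Casp6 (39.3 to 48.2) with Casp4 (39.2 to 48.1), and Fadd (3.41 to 4.44) with Bmf (3.13 to 6.34). The remaining neighbours, such as Casp8, Bcl2 and Bcl2a1b, or Bcl2a1d, Casp1 and Casp2, did not differ beyond the gap between libraries.

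Counts of each gene were then compared between the libraries by an exact binomial test (2-sided) on library totals, adjusted by Benjamini-Hochberg over 24253 genes, and called at an adjusted p under 0.05. This compares these libraries, not conditions. Of the 34 genes 23 were called (67.6%), compared with 70.3% of all genes tested. Higher counts in library 1 were called for 7 (20.6%), beside 23.9% of all genes, and higher counts in library 2 for 16 (47.1%), beside 46.4%. The split moved with the scaling: it was 11 higher in library 1 and 11 in library 2 with TMM factors (all genes 30.1% and 40.5%), and 14 and 9 with DESeq2 size factors (all genes 32.1% and 39.0%). These scalings moved the median log2 ratio of detected genes to 0.10 and 0.14, from -0.01 with library totals. With a difference of at least 1.5-fold required as well, 7 of the 34 were called (20.6%), compared with 46.7% of all genes. Among the detected genes 2 of 29 met both conditions (6.9%), compared with 20.2% of detected protein-coding genes. In the small table, 11 of the 32 genes with enough counts were called (34.4%), beside 54.3% of all genes there. Of these, 6 were higher in library 2, beside 32.2% of all genes, and 3 were at least 1.5-fold apart, beside 31.7%.

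Well-expressed genes differed little. The 25 genes with a mean of at least 10 TPM had log2 ratios, library 1 over library 2, between -0.52 and 0.64, and only Bcl2l11 among them passed 1.5-fold. With TMM and DESeq2 factors Aifm1 passed it too, at 0.63 and 0.66. The 9 genes under 10 TPM ran from -6.54 to 1.88, and 6 of them passed 1.5-fold. Counts behind those 6 were few in at least 1 library.

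Bcl2l11 was 1.56-fold higher in library 1, with a log2 ratio of 0.64 (95% counting interval 0.56 to 0.73, adjusted p by the exact binomial test 7.16e-48) and of 0.36 in the small table. Aifm1 was 1.43-fold higher in library 1 (log2 ratio 0.52, exact binomial adjusted p 6.79e-16). Casp9 was also called higher in library 1, with a log2 ratio of 0.23. In the other direction Bcl2l1 was 1.43-fold higher in library 2 (log2 ratio -0.52, exact binomial adjusted p 2.14e-13), although its small table difference of -0.29 was not called. Casp8, Casp1, Bid, Bbc3 and Dffb were higher in library 2 by log2 ratios of -0.20, -0.26, -0.30, -0.34 and -0.34. With DESeq2 factors Casp8 (-0.05) and Casp1 (-0.12) were not called, and in the small table Bbc3 was not (log2 ratio -0.27, exact binomial adjusted p 0.121). With 2 libraries, a gene higher in either shares its direction with every marker higher in that library, so direction alone cannot assign it to a cell type. The part of other cells, whose marker sums are given above, was not tested.

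Direction was unsettled for several of the most abundant genes. Mcl1 had a log2 ratio of 0.12 in the large table and -0.12 in the small table, both called. Bax (-0.10) and Bcl2 (-0.05) were called higher in library 2 with library totals, and their ratios turned above 0 with TMM and DESeq2 scaling. For Cflar the counts were higher in library 1 (log2 ratio 0.12), whereas its TPM was higher in library 2. The small table held 29.7% and 31.6% as many counts as the large one over all genes, but only 9.94% and 10.4% for Bcl2 and 4.70% and 5.25% for Bcl2a1b, compared with 71.9% and 77.9% for Casp1. For Endog the small table held more counts than the large one, at 138% and 153%, so the level of Endog depends on the table.

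The low genes differed by more. Bcl2a1a was 3.68-fold higher in library 1, with 100.48 and 22.21 counts, and Bak1 2.83-fold higher in library 1. Bmf was 3.96-fold higher in library 2, with 42 and 139 counts. Bok was 9.98-fold and Bcl2l2 11.5-fold higher in library 2, each with 5 counts in library 1. Hrk was at least 15.3-fold higher in library 2, taking 3 counts in library 1 as the floor for a count of 0. The small table held no Hrk count in either library and only 1 and 0 counts of Bcl2l2, so these 2 differences were not seen there. It did call Bcl2a1a (20 and 3 counts), Bmf (5 and 31) and Bak1 (10 and 1) in the same direction. Both tables count the same 2 libraries, so these calls are not independent. Bok had 6 and 15 counts in the small table, a smaller log2 ratio of -1.44 beside -3.32 in the large table. It was not called in the small table (exact binomial adjusted p 0.0518).

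**Figure D4:**
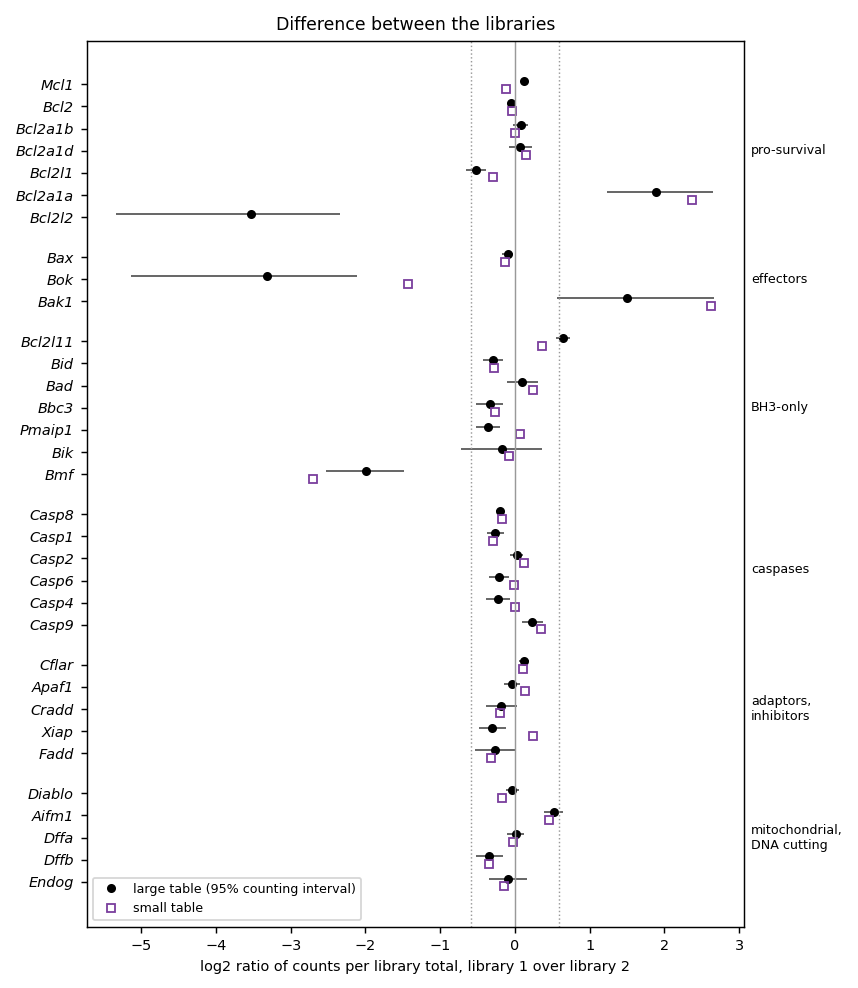
Log2 ratio of counts per library total, library 1 over library 2, for 33 genes by role, with filled points for the large table (bars, 95% counting interval), open squares for the small table and dotted lines at 1.5-fold. Hrk is left out because library 1 held 0 counts, Bcl2l2 has no small-table point, and of genes with a mean of at least 10 TPM only Bcl2l11, at 0.64, lies past a dotted line in the large table scaled by library totals.

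The rest of the pathway was followed through 48 further genes in 7 lists, of which 44 had enough counts to test. Of these, 30 were called (68.2%), beside 70.3% of all genes, 13 of them higher in library 1 (29.5%, beside 23.9%) and 17 higher in library 2 (38.6%, beside 46.4%). The counts of single lists below are to be read against the same shares of all genes. Of the 10 other BCL2-related genes, 4 were called higher in library 1, 2 higher in library 2 and 4 were not called. The mitophagy receptor gene Bnip3l led them with 337.96 and 326.72 TPM, a level above that of Bax. Bnip2 followed with 89.21 and 96.23 TPM, and Bcl2l15, at 6.6 and 1.31 TPM, was 3.46-fold higher in library 1.

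Among caspase genes outside the 6 above, Casp14 was at 0 in both libraries and Casp12 at 0 in library 1. Of the 4 other inhibitor of apoptosis genes, 2 were called higher in library 1. Birc3 and Birc2, which act on TNF receptor signalling, had 77.5 and 81.75 TPM and 71.34 and 69.1 TPM and were not called. Birc5, survivin, which also serves cell division, had 18.87 and 2.92 TPM and was 5.36-fold higher in library 1, as were all 6 markers of dividing cells; their part in this difference was not tested. Of the 4 other mitochondrial release factors, 2 were called higher in library 1. The channel genes Vdac2 and Vdac1 had 143.62 and 145.84 TPM and 85.34 and 57.64 TPM.

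Among the 10 genes of death receptors, ligands and adaptors, 2 were called higher in library 1, 6 higher in library 2 and 2 were not called. Tnfrsf1b, the TNF receptor that is prominent on regulatory T cells, had 122.56 and 85.99 TPM, and the adaptor Tradd had 74.06 and 54.34 TPM. Tnfrsf1a, the TNF receptor with a death domain, had 12.55 and 30.65 TPM and was 2.44-fold higher in library 2. Tnfrsf10b, the mouse TRAIL receptor, had 0.77 and 3.0 TPM and was 3.78-fold higher in library 2. Of the 8 pyroptosis and necroptosis genes, 5 could be tested. Of these, 4 were called higher in library 2, beside 46.4% of all genes. With TMM or DESeq2 factors Aim2 was no longer called. In the small table Aim2 and Pycard were not called, whereas Gsdmd and Mlkl were. All 7 macrophage markers were also called higher in library 2, and their part in the count of 4 was not tested. The inflammasome adaptor gene Pycard had 215.25 and 245.7 TPM and the pore-forming Gsdmd 131.56 and 167.28 TPM. Mlkl, the effector of necroptosis, had 1.7 and 3.7 TPM and was 2.10-fold higher in library 2. Il1b was at 0 in both libraries, and Nlrp3 and Il18 were at 0 in library 1.

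In the p53 axis, 2 of 8 genes were called higher in library 1, 4 higher in library 2 and 2 were not called. Trp53 itself had 222.03 and 203.62 TPM and Ccng1 87.51 and 111.05 TPM. Cdkn1a, the cell cycle inhibitor p21, had 1.74 and 4.73 TPM and was 2.43-fold higher in library 2. Sesn2, a stress-induced regulator of growth signalling, had 0.51 and 7.85 TPM and was higher in library 2 by a log2 ratio of -3.90. The median log2 ratios of these lists lay between -0.24 and 0.36, compared with -0.14 over the 34 genes described first and -0.23 over all genes tested.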

How the data were processed

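Gene and transcript tables of the 2 technical libraries were used. The large tables hold expected counts, posterior counts, TPM and FPKM, and the transcript tables also the percent of the gene taken by each transcript, deposited by the authors from mm10 and GENCODE M21, per the deposited description. The small tables hold whole-number counts per gene, deposited by the authors with GENCODE M4. Aligner and quantifier are not given in the sources. Rows that are not GENCODE genes, with 0.201% and 0.235% of the counts, were left out, and the remaining totals gave the depth.

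The members and lists were chosen with earlier results of these data known. Pathway genes named are the 2 most abundant of each list by mean TPM and those called at 2-fold or more with at least 100 summed counts. Those named beyond this rule were chosen after their values were seen. Most were at 0, Aim2 lost its call in other settings, and Bcl2a1c is a further copy of A1. Some genes that this rule takes are not reported here.

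Expected counts, rounded to whole numbers, were tested for genes with at least 10 summed counts, in Python 3.11.15 with scipy 1.17.1. Ratios had 0.5 counts added. No generalised linear model could be fitted without residual degrees of freedom, so edgeR 4.0.16 and DESeq2 1.42.0 (R 4.3.3) served only for scaling factors. The test was checked on simulated counts whose only noise was counting error, so that check does not cover other variation between libraries. Intervals (95%, Clopper-Pearson) and floors (3 counts) cover counting error only. Alternatives were these scalings, no count filter, other detection levels, FPKM, TPM with pseudocounts, the small table, each library alone and, chosen after seeing the data, the Bcl2a1 copies summed.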

Additional observations from a re-analysis of the deposited data

How the results depend on the processing

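Of the 41 alternative values of the summary results, 34 stayed within 1.5 times the reported value or within the gap between libraries. The count of genes called was 11 in the small table, against 23 in the large one, and the count past 1.5-fold was 3 there, against 7. Genes called higher in library 1 numbered 11 with TMM and 14 with DESeq2 factors, against 7, and those higher in library 2 numbered 9 with DESeq2 factors and 6 in the small table, against 16. The median level was 16.3 in FPKM, a different unit from the 26.4 TPM. Each library alone detected 30 to 32 genes and had a median level of 23.8 to 28.5 TPM, and the ratio of pro-survival to BH3-only sums was 5.31 to 5.59.

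The log2 ratio of Bax turned to 0.0138 with TMM and 0.0496 with DESeq2 factors, that of Bcl2 to 0.055 and 0.0907, and that of Diablo to 0.11 with DESeq2 factors. In the small table Bcl2l2 turned to 1.40, from 1 and 0 counts, Casp4 to 0.0025, Mcl1 to -0.12, Pmaip1 to 0.0674 and Xiap to 0.24. On log2 TPM the ratio of Cflar was -0.13 with a pseudocount of 1 and -0.13 with 0.1. The causes were not tested. The 3 Bcl2a1 copies summed had a log2 ratio of 0.11 (exact binomial adjusted p 0.0104), a call that Bcl2a1b (0.08) and Bcl2a1d (0.07) did not reach singly. No paired analysis was possible because the libraries form 1 group. With 5 counts or fewer in 1 library, the folds of Bok, Bcl2l2 and Hrk are limited by depth.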
